A study of Arabidopsis thaliana with 72 samples.

Results

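Wild-type Arabidopsis seedlings were followed through a pair of successive 24 h cycles of continuous light, and the second cycle was set against the first. The second cycle was sampled at 73, 77, 81, 85, 89 and 93 h and the first at 49, 53, 57, 61, 65 and 69 h, as the labels count time, so that each array of the second cycle had a partner of the same hour modulo 24 in the first. With 2 replicate time courses this gave 12 arrays of the second cycle and 12 of the first, 24 of the 72 ATH1 arrays of the series. The arrays were taken by their labels and by no measured value.

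All seedlings used here were wild type of the C24 ecotype, without treatment, grown for 11 days in 12 h light and 12 h dark at 19 °C and 70 µmol/m2/s and then moved to continuous white light at 100 µmol/m2/s. RNA came from the aerial parts of seedlings plated in clusters, many to a sample. The labels differ between the time courses: time course 1 was given developmental stage 1.03 and day and night of 12 h each, and time course 2 stage 1.04 and constant light, although the growth text of both ends in continuous light. The other conditions of the series, used below for comparison, were toc1-1, an EMS-induced clock mutant of unstated ecotype that was plated more densely, and C24 treated with nicotinamide, whose dose is not in the labels used here, each with 24 arrays at the same times. No label says whether the time courses came from separate sowings. The p-values therefore cover the scatter of these arrays, which may be partly technical.

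The plant circadian clock is a set of transcription factors and their partners that repress and activate one another in a daily loop. It keeps running in constant light, and many of its output genes, among them those for light harvesting, cold tolerance and anthocyanin, are transcribed at a fixed time of the subjective day. In constant conditions a rhythm of a plant population can lose amplitude from cycle to cycle, when the clocks of single cells drift apart or when the oscillation itself weakens. Constant light also means that the leaves receive no night, and the seedlings are a day older in the second cycle. The comparison asks whether levels, amplitudes and peak times differ between the cycles.

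Values are the authors' array signals, scaled by them to a common mean, and tests used log2(signal + 16). The 13647 probe sets tested are the upper 60% by mean log2 value. The untreated arrays were alike in trimmed mean signal, but not in every control. The 25S rRNA control was lowest at 53 h of time course 1, with a value of 6.5. It was highest at 85 h of time course 2, with 11.05. The correlation of log2 values across probe sets was 0.970 to 0.986 between replicate arrays of the same time and 0.967 to 0.986 between arrays 24 h apart in the same time course. The array of 93 h in time course 1 stood apart from the others. Of the untreated arrays it lay farthest from the mean of the others of its hour modulo 24. On it 4 transcripts listed as root markers were near 0, at signals of 0.381 to 0.694. One of these, AT4G26010, had between 75.4 and 378 on the other untreated arrays. The summed signal of 9 measured root markers of 26 listed was 1340 on this array, against 3240 to 6270 on the other second-cycle arrays and 3290 to 6090 in the first cycle. No root marker was at 0 on every array, and fewer root cells in a sample cannot be told apart from less of their RNA per cell. The markers of green tissue, 10 measured of 64 listed, summed to between 24700 and 39300 in the second cycle and between 23700 and 38200 in the first.

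The transcripts of the clock and its outputs ran through the second cycle much as through the first. GI, a clock protein that acts in the evening and in flowering, peaked at 9 h in both cycles, with signals of 293 and 264 in the second cycle, against 299 and 251 in the first. At its lowest, at 21 h, it had 22 and 34.5 in the second cycle, against 28.5 and 47.9 in the first. The cycles overlapped at both hours. The fitted 24 h amplitude of GI, the distance of the cosine's peak from its mean on the log2 scale, was 1.42 in the second cycle and 1.29 in the first. The difference was 0.13 ± 0.14 (SE, 12 and 12 arrays), and its adjusted p in limma was 0.909. Its fitted peak came at 10.81 h in the second cycle and at 10.45 h in the first.

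COR27, a cold-regulated gene driven by the clock, and CCL, a CCR-like transcript known to cycle, had the largest amplitudes of the 5 clock outputs that could be measured, of 18 listed. COR27 reached 191 and 213 at 13 h of the second cycle, against 212 and 349 in the first, and had 9.87 and 13.3 at 1 h of the second cycle, against 1.08 and 4.37 in the first. The cycles overlapped at 13 h, and at 1 h both second-cycle arrays lay above both of the first. The amplitude was 1.67 in the second cycle and 1.96 in the first, a difference of -0.29 ± 0.19 with an adjusted p in limma of 0.833. The COR27 signals at 1 and 5 h, 1.08 to 16.5, lay near or below the 16 added before the log, so the fitted amplitude depends on that number. Over the alternatives run, the COR27 difference ran from -0.79 to -0.13. AT4G33980, also listed as a clock output, had amplitudes of 1.09 and 1.12 in the second and the first cycle. Its signals at 1 and 5 h were low too, 1.89 to 10.2. CCL had 3390 and 4020 at 13 h of the second cycle, against 2900 and 3340 in the first, and its amplitudes were 1.46 and 1.64 in the same order. Its mean level was 0.37 ± 0.12 higher in the second cycle, by 0.09 in time course 1 and by 0.66 in time course 2, and was not called (limma adjusted p = 0.221). AFR, an F-box protein of far-red signalling, kept amplitudes of 0.95 and 0.94 in the second and the first cycle, and AT1G69570 had 0.59 and 0.47. The signals of AT1G69570 ran from 1.37 to 47, many of them near or below the 16 added, so its amplitudes depend on that number too.

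**Figure D1:**
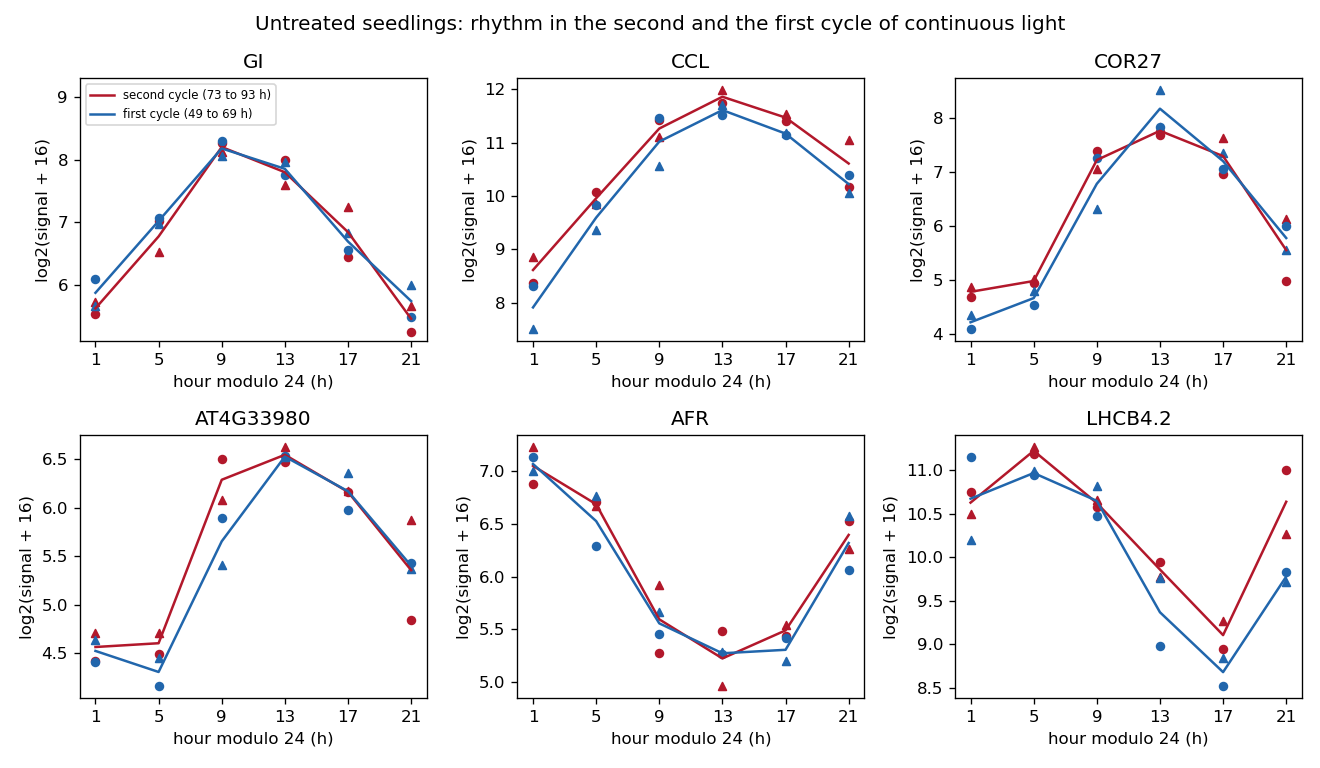
Signals of the clock gene GI, 4 clock outputs (CCL, COR27, AT4G33980 and AFR) and the light-harvesting gene LHCB4.2 in untreated seedlings, as log2(signal + 16) on the vertical axis against the hour modulo 24 on the horizontal axis. Red marks the second cycle and blue the first, circles are time course 1, triangles time course 2, and lines join the means of the 2 arrays. The curves of GI lie nearly on each other, while the trough of COR27 at 1 and 5 h lies higher in the second cycle.

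Only 4 of the 28 core clock genes listed had a named probe set, and all 4 were tested. Besides GI, at -0.11 ± 0.10 (second minus first, SE, 12 and 12 arrays), these were TIC, a nuclear regulator of the clock, AT4G01280 and AT5G52660. None was called for level. TIC stood at -0.07 ± 0.06, AT4G01280 at 0.09 ± 0.11 and AT5G52660 at 0.02 ± 0.07, or 0.0045 without the 93 h array of time course 1. TIC was rhythmic with amplitudes of 0.26 and 0.23 in the second and the first cycle. Fitted together over both cycles, GI, COR27 and AT4G33980 gave a common period of 23.7 h, with 23.4 h in time course 1 and 24 h in time course 2.

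Over both cycles together 3981 of 13647 probe sets were called rhythmic with a period of 24 h (29.2%, limma, moderated F test, adjusted p under 0.05). In these the median ratio of amplitudes, second over first, was 1.004, with 1.047 in time course 1 and 0.926 in time course 2. The amplitude was lower in the second cycle in 1971 of them, 49.5%, or in 54.9% without the 93 h array of time course 1. A difference of amplitude was called in 0 of 3981 (0% called); at an unadjusted p under 0.05 it was lower in 141 (3.54%) and higher in 112 (2.81%), together 6.36%, and the smallest adjusted p was 0.36. A difference of the whole rhythm, in amplitude or timing, was called in 0 of 13647 (0% called), with 603 (4.42%) at an unadjusted p under 0.05. The fitted peak moved by a median of 0.003 h between the cycles, -0.126 h in time course 1 and 0.2 h in time course 2, and in 75.7% of the rhythmic probe sets it moved by less than 2 h. This median pools shifts of opposite sign at different times of day, given below. Leaving out 93 h of time course 1 gave a median amplitude ratio of 0.954 and a median shift of 0.238 h in the same probe sets, with 0 amplitude calls.

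The median standard error of an amplitude difference was 0.11. For 991 rhythmic probe sets (24.9%) the 95% interval lay above a loss of 50% of the first-cycle amplitude. Among the 663 with an amplitude of at least 0.5 over both cycles, 418 (63%) had such an interval. These 418 are part of the 991. The bound is a share of the amplitude itself, so at a given standard error a strong rhythm meets it more easily. On the log2 scale the bounds of the strongest rhythms were no tighter. The named transcripts of largest amplitude, given below, had standard errors from 0.141 (AT2G27420) to 0.237 (AT4G32340), above the median of 0.11.

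In the 102 probe sets with an amplitude of 1 or more, the median ratio of amplitudes was 0.928, with 0.98 in time course 1 and 0.923 in time course 2, and 65 of them (63.7%) had the lower amplitude in the second cycle. Without the 93 h array of time course 1 the ratio was 0.925 and 66.7% were lower. Of the 102, 97.1% peaked within 2 h of the same time in both cycles. For the 561 with amplitudes of 0.5 to 1 the ratio was 0.984 with 53.1% lower, and without that array 0.926 with 62.2% lower. In the weakest class, with amplitudes under 0.25, the median ratio was 1.042, or 1.01 without that array, and 64.6% peaked within 2 h. By time of day, the median ratio was 0.946 for peaks from 0 to 6 h, 1.173 for peaks from 6 to 12 h, 0.881 for peaks from 12 to 18 h and 1.047 for peaks from 18 to 24 h. The value for peaks from 6 to 12 h was 1.249 in time course 1 and 0.981 in time course 2, and 1.03 without the 93 h array of time course 1. The value for peaks from 12 to 18 h was 0.940 in time course 1 and 0.803 in time course 2, and 0.857 without that array, and that for peaks from 0 to 6 h was 0.885 in time course 1 and 1.02 in time course 2. The fitted peaks of these classes moved by medians of -0.145, 0.248, -0.599 and 0.454 h in the same order. For peaks from 12 to 18 h the shift was -0.766 h in time course 1 and -0.411 h in time course 2. It was 0.433 and 0.716 h for 18 to 24 h, 0.213 and 0.323 h for 6 to 12 h, and -0.405 and 0.223 h for 0 to 6 h. Without the 93 h array of time course 1 the medians were 0.195, 0.431, -0.182 and 0.555 h. All these classes were formed from the same arrays, so their ratios and shifts are a description and were not tested.

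**Figure D2:**
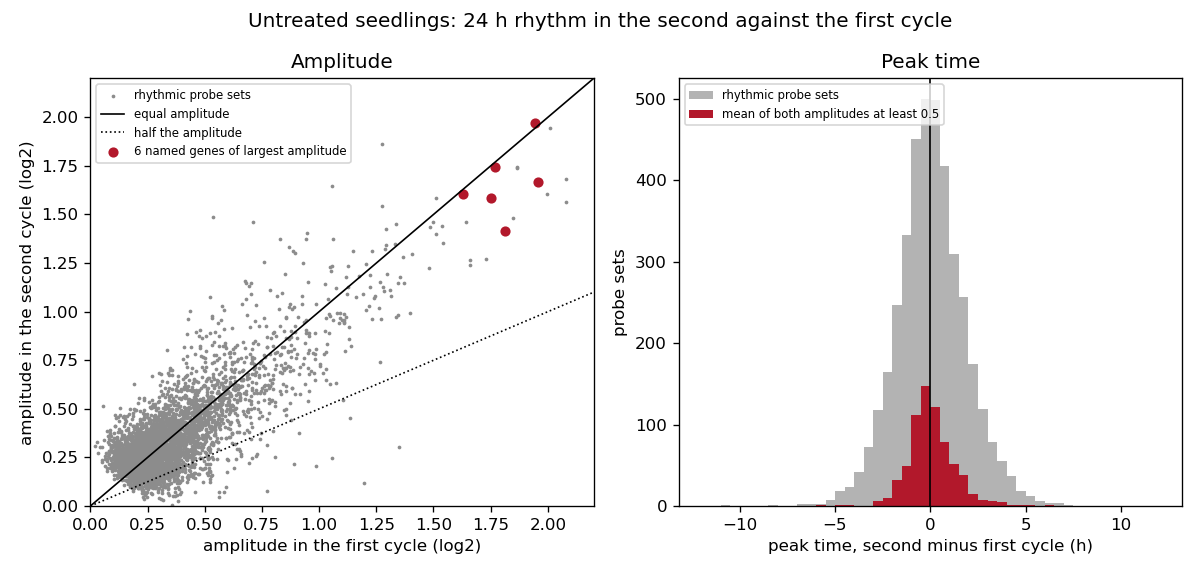
Left, the fitted 24 h amplitude in the second cycle (vertical axis, log2) against the first (horizontal axis, log2) for the 3981 rhythmic probe sets, with lines at equal amplitude and at 50% of it, and the 6 named genes of largest amplitude in red. Right, the number of probe sets by shift of the fitted peak, second minus first cycle, in hours, with those whose amplitudes average at least 0.5 in red. The points lie on both sides of equality and the shifts centre near 0 h.

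The 6 named transcripts of largest amplitude were AT5G62360, COR27, AT3G62550, AT4G32340, AT2G27420 and AT2G15020, and their amplitudes lay between 1.42 and 1.97 in the second cycle and between 1.63 and 1.96 in the first. AT5G62360 ran from 5.57 over a median of 75 to 293 in the second cycle, and from 8.23 over 85.3 to 390 in the first. Its amplitudes were 1.97 and 1.94, and its peaks at 12.48 and 12.42 h, in the second and the first cycle. AT3G62550 had amplitudes of 1.75 in the second cycle and 1.77 in the first. AT2G27420 had 1.61 and 1.63 in the same order and peaked at 23.47 h in the second cycle and at 23.88 h in the first. For these 3 transcripts the 95% intervals of the amplitude difference ran from -0.36 to 0.41, from -0.40 to 0.36 and from -0.32 to 0.27. AT4G32340 had amplitudes of 1.58 in the second cycle and 1.75 in the first.

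AT2G15020 had the largest reduction of the 6, with an amplitude of 1.42 in the second cycle and 1.81 in the first. Its signals ran from 15.3 over a median of 127 to 294 in the second cycle and from 7.84 over 91.1 to 327 in the first. The difference of -0.40 ± 0.18 had an unadjusted p of 0.0445 and an adjusted p of 0.768 in limma. The transcript with the smallest p for amplitude, AT1G19200, was chosen after its values were seen. It had 37.9 to 112 in the second cycle and 10.5 to 179 in the first, and amplitudes of 0.12 and 1.19 (limma adjusted p = 0.36). The groups overlapped, with the second cycle inside the range of the first.

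On arrays scaled to a common mean, the mean levels of most single probe sets differed little between the cycles. The median change over all probe sets was -0.0008 on the log2 scale. The scaling itself holds this median near 0, so it cannot show whether all levels moved together. The median standard error was 0.078, and for 13455 of 13647 probe sets (98.6%) the 95% interval lay within 1.5-fold in either direction. In limma 14 were called higher in the second cycle (0.103% called) and 10 lower (0.0733% called), 24 in all (0.176% called), where an unadjusted p under 0.05 was found for 1712 (12.5%), with 782 higher (5.73%) and 930 lower (6.81%). In 0 of 13647 (0%) did all arrays of one cycle lie beyond all of the other. All 24 moved the same way in both time courses, and each had at least 9 of the 12 pairs of arrays, matched by hour and time course, in its direction. The calls were chosen by the mean change over these same pairs, which favours such agreement, so these counts are a description. Of the 24, 16 were also rhythmic, and 11 had a gene name, 6 higher and 5 lower. Across all tested probe sets the changes of the time courses correlated at 0.367 (Pearson, 13647 probe sets, which are not independent).

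These calls were borderline, with adjusted p between 0.0341 and 0.0488 for the named genes. Leaving out a single array took the count to 0 for 11 of the 24 arrays, namely 49 h, 57 h, 69 h, 77 h and 85 h of time course 2 and 53 h, 61 h, 77 h, 81 h, 85 h and 89 h of time course 1. It took the count to 1 without 65 h of time course 1 or 73 h of time course 2, to 5 without 53 h of time course 2 and to 14 without 81 h of time course 2. Without 89 h of time course 2 it was 36. The count was 94 without 49 h of time course 1, 73 without 65 h of time course 2, 64 without 61 h of time course 2 and 48 without 57 h of time course 1. Without 93 h of time course 1 it was 14 higher and 7 lower. The sign of each named change held in all of these.

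**Figure D3:**
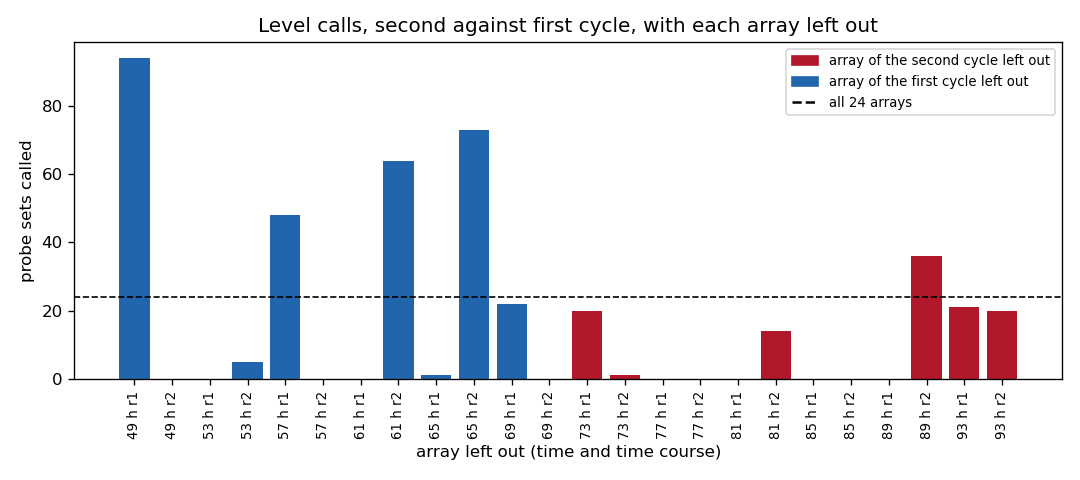
Number of probe sets called for level, second against first cycle (vertical axis), when each of the 24 untreated arrays is left out (horizontal axis, time and time course r1 or r2). Red bars leave out an array of the second cycle and blue bars an array of the first, and the dashed line is the count of 24 with all arrays. The count reaches 0 for 11 arrays and 94 for the array of 49 h in time course 1.

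Of the 6 named genes that rose, CHI had the largest change. CHI (AT2G43570), a putative chitinase, an enzyme class that cleaves fungal cell walls, had signals from 216 over a median of 318 to 473 in the second cycle, against 76.5 over 185 to 402 in the first. Of the 12 first-cycle arrays 4 lay above the lowest of the second, so the groups overlapped in part. The change was 0.83 ± 0.15 (SE, 12 and 12 arrays; 95% interval 0.51 to 1.14; limma adjusted p = 0.0341), with 0.90 in time course 1 and 0.75 in time course 2. AT2G43530 had 189 over 408 to 519 in the second cycle, against 130 over 266 to 434 in the first. It rose by 0.58 ± 0.10 and was higher in 11 of 12 pairs. AT2G38870 had 215 over 260 to 352 in the second cycle, against 117 over 205 to 256 in the first, and rose by 0.42 ± 0.09. The others were AT2G04460 (0.55 ± 0.10), which RefSeq lists as a pseudogene, AT1G24575 (0.44 ± 0.08) and AT5G39520 (0.42 ± 0.09). AT5G39520 had low signals, 16.4 over 35.2 to 57.2 in the second cycle, against 11.7 over 19.2 to 34.4 in the first. Many lay near the 16 added before the log, so the size of its change depends on that number. Over the alternatives run, the change of AT5G39520 ran from 0.20 to 0.67.

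The 5 named genes that fell changed by similar amounts. AT3G23940 had 130 over a median of 193 to 243 in the second cycle, against 172 over 279 to 313 in the first, and fell by 0.43 on the log2 scale (SE 0.09). It was lower in 11 of 12 pairs. AT5G20890 had 311 over 438 to 684 in the second cycle, against 474 over 610 to 779 in the first, a change of -0.41 ± 0.08. AT1G73600 changed by -0.44 ± 0.09 and had the largest amplitude of the 11. Its amplitude was 0.68 in the second cycle and 1.02 in the first (limma adjusted p = 0.657 for the difference). AT2G07707 changed by -0.45 ± 0.09, but its probe set is of a type that can match several transcripts, so the signal may mix them. AT2G35790 changed by -0.40 ± 0.07, with 50.6 over 88.9 to 110 in the second cycle, against 89.1 over 125 to 155 in the first.

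**Figure D4:**
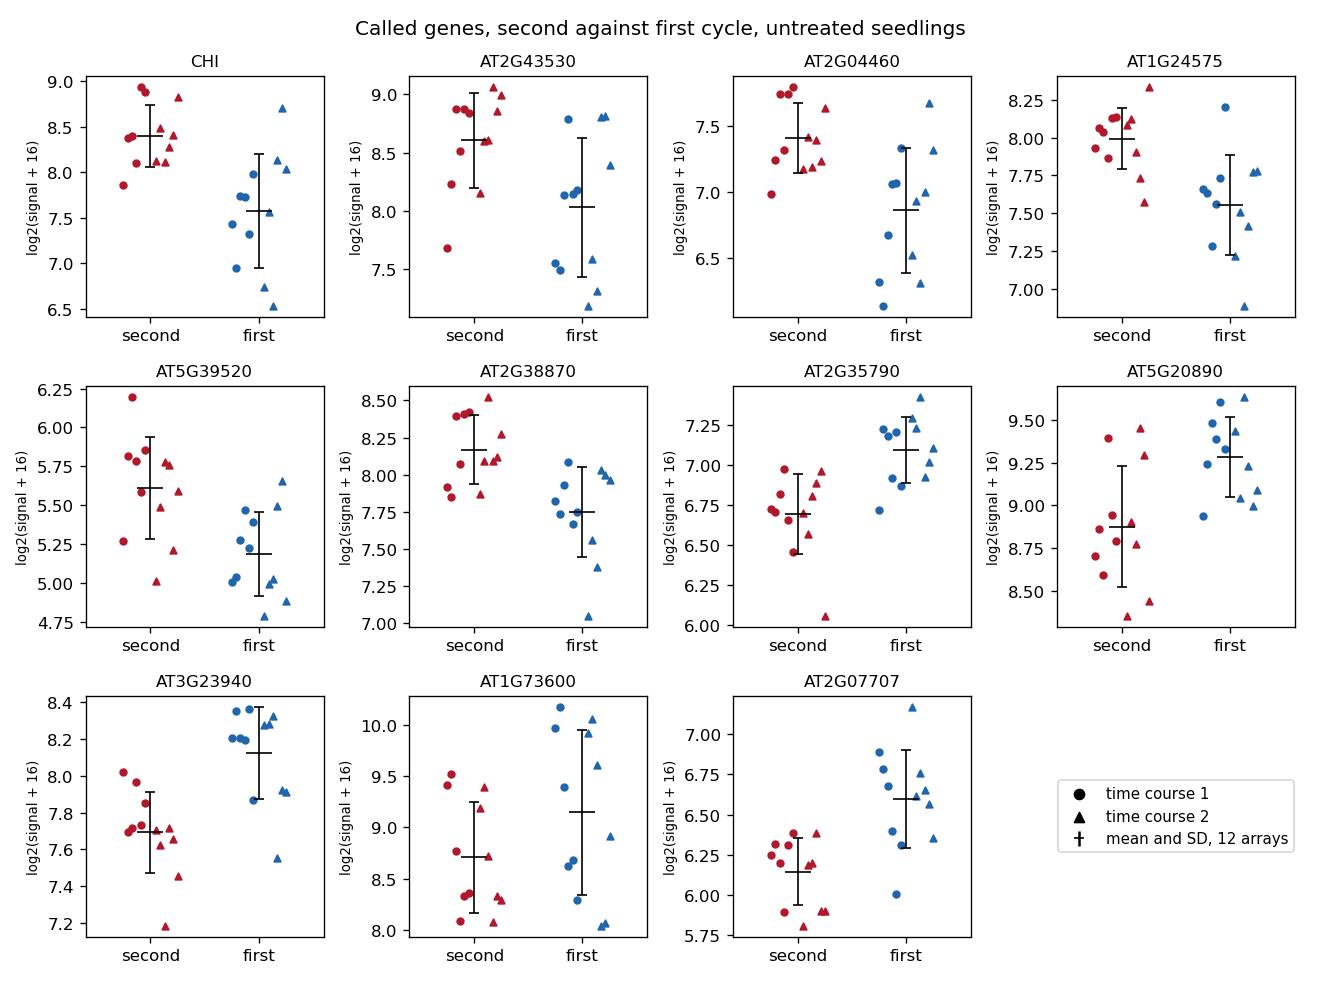
log2(signal + 16) of the 11 named genes called for level, in the 12 arrays of the second cycle (red, left) and of the first (blue, right) of untreated seedlings. Circles are time course 1 and triangles time course 2, in order of hour from left to right, and black marks give the mean and SD of the 12 arrays. In every panel the cycles overlap.

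Hour by hour, no probe set was called at any of the 6 hours (0% called at each, limma). At an unadjusted p under 0.05 the share was 4.56% at 1 h, 5.34% at 5 h, 7.01% at 9 h, 3.66% at 13 h, 1.95% at 17 h and 9.34% at 21 h. The hour of the highest share, 21 h, is that of the 93 h array which stood apart. Without the array of 93 h in time course 2, which leaves that array alone for its hour, 147 probe sets were called over the 6 hours. A single hour rests on 2 arrays of each cycle, with a median standard error of 0.19.

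Gene lists for pathways of seedlings in light held 545 genes, of which 92 had a named probe set and 78 were tested. None of the 78 was called (0 members, against 0.176% called over all probe sets), and 14 had an unadjusted p under 0.05, beside 12.5% of all probe sets. The lists are therefore given by their values. Of the light-harvesting proteins of photosystem II all 3 measured members were higher in the second cycle, with a median of 0.28 against -0.0008 over all probe sets. LHCB4.2 had 477 over a median of 1470 to 2430 in the second cycle, against 350 over 1030 to 2250 in the first, a change of 0.33 ± 0.11 (limma adjusted p = 0.239). LHCB4.3 changed by 0.28 ± 0.10 and LHCB4.1 by 0.14 ± 0.10. All 4 measured photosystem subunits were also higher, by 0.09 to 0.19, as were all 3 Calvin cycle genes, by 0.08 to 0.13, with no call. The 67 plastid-encoded transcripts tested lay between -0.40 and 0.35 with a median of 0.06 (0.04 without the 93 h array of time course 1), and 0 were called, with 4 higher and 2 lower at an unadjusted p under 0.05.

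The flavonoid and anthocyanin list had 5 tested members, all of them above 0 with a median of 0.30. DFR, which makes leucoanthocyanidins, had 77.1 over a median of 287 to 675 in the second cycle, against 73.2 over 225 to 462 in the first, a change of 0.39 ± 0.15 (limma adjusted p = 0.27). At 1 h, near its peak, DFR had 675 and 534 in the second cycle, against 443 and 246 in the first. The limma fit gave DFR amplitudes of 1.405 in the second cycle and 0.946 in the first, with an adjusted p of 0.755. UF3GT, a glycosyltransferase of anthocyanins, changed by 0.34 ± 0.14, and AT4G14090 of the same list by 0.30 ± 0.16. Both had amplitudes of 1.37 in the second cycle, against 0.94 for UF3GT and 1.06 for AT4G14090 in the first. UGT78D1 and UGT78D2, which glycosylate flavonols, changed by 0.09 ± 0.11 and 0.02 ± 0.08, and UGT78D2 by 0.03 without the 93 h array of time course 1.

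In the cold list all 4 tested members were above 0, with a median of 0.23, but 0.02 in time course 1 and 0.44 in time course 2. COR15A, a chloroplast protein that protects membranes, had 80.3 over a median of 214 to 498 in the second cycle, against 29.8 over 131 to 265 in the first. Its change of 0.62 ± 0.16 had an adjusted p in limma of 0.141 and was higher in 8 of 12 pairs. COR15B changed by 0.37 ± 0.12, COR47 by 0.09 ± 0.13 and LTI30 by 0.08 ± 0.17. LTI30 had a signal of 15.1 on the 93 h array of time course 1, and without that array COR47 stood at 0.23 and LTI30 at 0.25, with a median of 0.31 for the list. Of jasmonate genes the defensins PDF1.2b (0.61 ± 0.39) and PDF1.2 (0.45 ± 0.50) were tested. They had the largest median of any list, 0.53, but 0.90 in time course 1 and 0.15 in time course 2, and their standard errors were the largest among the members. The sugar starvation list was at 0.08 with all 5 members above 0, and starch at 0.005 with 5 members, or 0.03 without the 93 h array of time course 1. In time courses 1 and 2 these lists stood at 0.08 and 0.01 for sugar starvation and at -0.05 and 0.05 for starch.

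The expansin EXPA15, which loosens cell walls, had 58.7 over a median of 93.4 to 110 in the second cycle, against 76.2 over 115 to 163 in the first, and changed by -0.32 ± 0.09 (limma adjusted p = 0.144), lower in 11 of 12 pairs. The cell wall list had a median of -0.02 over 8 members (-0.005 without the 93 h array of time course 1), the cell cycle list -0.02 over 5, auxin -0.10 over 3 and glucosinolate -0.09 over 3. In time courses 1 and 2 the medians were -0.06 and -0.02 for the cell wall list and -0.16 and 0.06 for the cell cycle list. They were 0.05 and -0.19 for auxin and -0.01 and -0.16 for glucosinolate. GSA1, of chlorophyll synthesis, changed by -0.20 ± 0.07, whereas CHLM of the same list changed by 0.16 ± 0.07, and 4 of its 5 members were above 0. The 5 tested root markers had a median of -0.24, with -0.47 in time course 1 and 0.03 in time course 2. Without the 93 h array of time course 1 their median was -0.05.

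**Figure D5:**
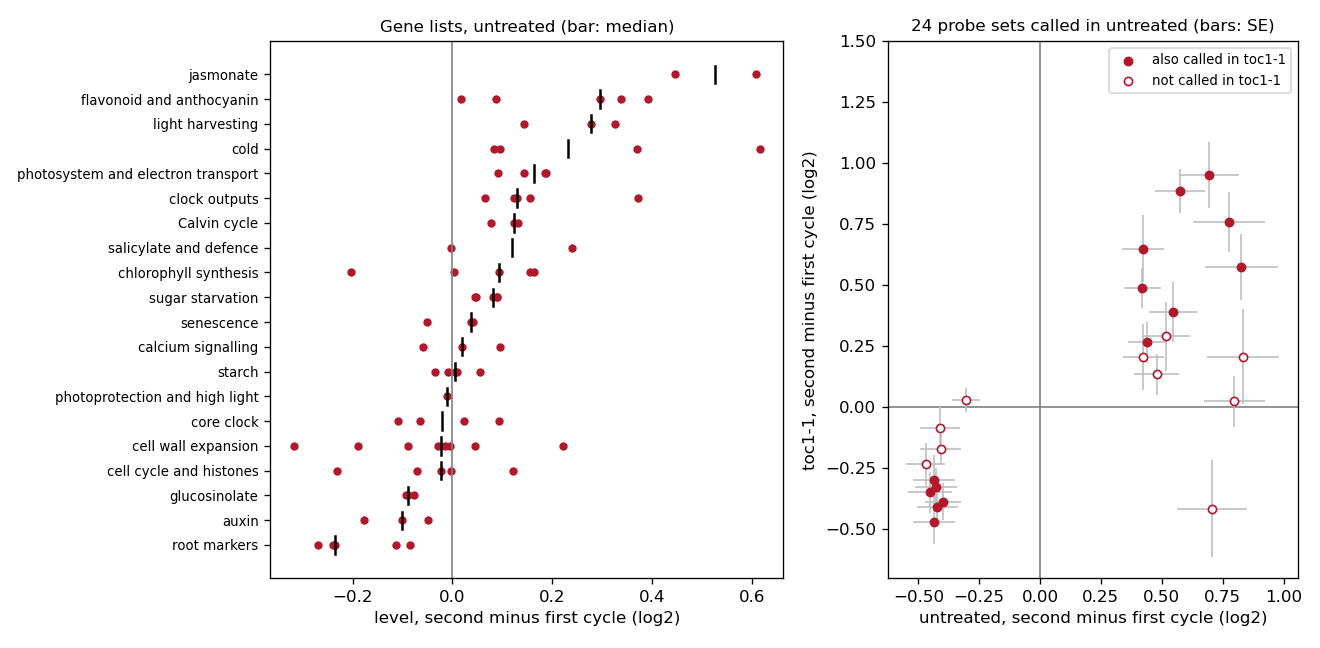
Left, level change of each tested list member in untreated seedlings, second minus first cycle on the log2 scale (horizontal axis), with a black bar at the median of each list (vertical axis). Right, the 24 probe sets called in untreated seedlings, with the change in untreated on the horizontal axis and the change in toc1-1 on the vertical axis, both on the log2 scale with SE bars, filled where toc1-1 was called too. Of the 24, 22 have the same sign in both, and 14 are filled.

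The toc1-1 arrays were not used to choose the untreated calls and gave a separate measure of them. Fitted on its own 24 arrays, toc1-1 had 1247 probe sets higher and 1077 lower in the second cycle (17% called, limma). Of the 24 untreated calls, 22 had the same direction in toc1-1, against 66.1% of all 13647 probe sets. That share is no matched baseline. It includes many probe sets with a change near 0 (median size 0.071 in untreated), whose sign is less certain than that of calls chosen by their change. Of the 22 calls of the same direction 14 were called in toc1-1, with a range of 11 to 16 when single toc1-1 arrays were left out. Of the 11 named genes all had the same direction and 9 were called. AT2G43530 had 356 over a median of 463 to 679 in the second cycle of toc1-1, against 153 over 257 to 412 in the first, a change of 0.89 ± 0.09 (limma adjusted p = 1.35e-05) beside 0.58 ± 0.10 in untreated seedlings. CHI changed by 0.57 ± 0.14 in toc1-1, AT2G38870 by 0.65 ± 0.14, AT3G23940 by -0.33 ± 0.08 and AT2G35790 by -0.39 ± 0.08. AT5G20890 (-0.09 ± 0.09) and AT5G39520 (0.21 ± 0.13) were not called there.

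A difference in level change between untreated seedlings and toc1-1 was called for 0 probe sets (0% called, limma interaction), with 634 (4.65%) at an unadjusted p under 0.05. With only these conditions in the fit 8 were higher and 4 lower. Across all probe sets the untreated and toc1-1 changes correlated at 0.542 (Pearson, 13647 probe sets measured at the same hours, which are not independent). Of the 2324 calls in toc1-1, 86.6% had the same sign in untreated seedlings, where their median change along that direction was 0.115, against a median size of 0.259 in toc1-1. Of the 78 list members tested, 13 were called higher and 3 lower in toc1-1, beside the 17% called there over all probe sets. Those called higher included CCL (0.64 ± 0.10 in toc1-1, 0.37 ± 0.12 in untreated), DFR (0.80 ± 0.17 and 0.39 ± 0.15), UF3GT (0.62 ± 0.19 and 0.34 ± 0.14), LHCB4.2 (0.39 ± 0.09 and 0.33 ± 0.11) and LHCB4.3 (0.52 ± 0.11 and 0.28 ± 0.10), none of them called in untreated seedlings. The 3 called lower were LTI30 (-0.42 ± 0.13 in toc1-1, 0.08 ± 0.17 in untreated), which had the opposite sign in untreated seedlings, the root marker AT5G17820 (-0.63 ± 0.16 and -0.24 ± 0.21) and GSA1 (-0.17 ± 0.05 and -0.20 ± 0.07). Both cycles were windows of 24 h at fixed hours in each condition, whatever the period of that condition.

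With nicotinamide, 7 probe sets were higher and 11 lower in the second cycle (0.132% called). Of the 24 untreated calls 9 had the same direction there, against 46.5% of all probe sets, and 0 were called. All 18 nicotinamide calls had the same direction in untreated seedlings, with a median change along it of 0.116, against a median size of 0.669 under nicotinamide. The change differed between untreated and nicotinamide in 140 probe sets (1.03% called, limma interaction), 67 higher and 73 lower in untreated. In 132 of them the changes had opposite signs. Choice by a large difference itself favours opposite signs, so this count is a description and no separate result. XTH33, a xyloglucan-modifying enzyme of the cell wall, changed by -0.09 in untreated seedlings and by 0.60 under nicotinamide. The difference was -0.69 ± 0.12 (limma adjusted p = 0.00374). The interaction fit used a common spread for all conditions, toc1-1 included. Fitted alone, the typical standard error was 0.114 with nicotinamide, 0.0777 in untreated seedlings and 0.0689 in toc1-1. For XTH33 the nicotinamide change alone had a standard error of 0.1214, above the 0.1176 of the difference. Interaction standard errors and p-values against nicotinamide may therefore be too small. Of the 11 named genes CHI, AT5G20890 and AT3G23940 were among the 140, and CHI stood at 0.83 in untreated seedlings and -0.17 under nicotinamide. With only these conditions in the fit 1 probe set was higher and 0 lower, and without nicotinamide time course 2 there were 2112 higher and 1044 lower.

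In the 636 probe sets rhythmic in all 3 conditions, the median ratio of amplitudes, second over first, was 0.971 in untreated seedlings, with 1.01 and 0.933 in the time courses. It was 0.775 with nicotinamide (0.819 and 0.773) and 0.773 in toc1-1 (0.758 and 0.793). The fitted peak, counted modulo 24 h, moved by -0.067 h in untreated seedlings, by 1.99 h with nicotinamide and by -2.24 h in toc1-1. In the time courses the shift was 0.0378 and 0.0431 h in untreated seedlings, 1.31 and 2.51 h with nicotinamide and -2.18 and -2.31 h in toc1-1. These differences between conditions were not tested.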

How the data were processed

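Arrays were ATH1 chips of aerial tissue, hybridised with biotin-labelled total RNA. Per the submitters' processing notes, the authors made the signal intensities with MAS5 and GCOS, whose versions are not given in the sources used here; the deposited intensities have nearly the same trimmed mean on every array. They were used without further scaling as log2(signal + 16), computed here from the deposited values. Of 22810 probe sets, 64 controls were left out and the upper 60% by mean over all 72 arrays, 13647, were tested. limma 3.58.1 in R 4.3.3 was fitted to the 24 untreated arrays with a mean for each time, giving 12 residual and 7.95 prior degrees of freedom; levels are contrasts of these means and amplitudes come from a cosine of 24 h in each cycle. P-values were adjusted by Benjamini-Hochberg over all tested probe sets, or over the rhythmic ones for amplitude, at 0.05. The toc1-1 and nicotinamide arrays were fitted in the same way, and interactions over all 72.

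The platform annotation gave 1 gene for 13513 probe sets, several for 503 and none listed for 8794, and only the first kind is named. Named were the called genes of the same direction in both time courses (up to 14 each way), the 6 of largest amplitude, all tested core clock and clock output genes, up to 4 other members of each list, and the 6 of smallest adjusted p in each interaction; other members are named to complete a list. Members and lists were chosen with earlier results of these data known. The scripts were tested on simulated data. Alternatives covered the pseudocount, filter, normalization, spread, blocks, left-out arrays, hours and time courses. Array number limits the precision. No sequence or coordinate is printed.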

Additional observations from a re-analysis of the deposited data

Results flagged for a closer look

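The change in level from the first to the second cycle differed between untreated seedlings and nicotinamide-treated seedlings in 140 probe sets by the limma interaction test. The 6 named genes with the smallest adjusted p were XTH33 (untreated minus nicotinamide -0.69, with -0.09 in untreated seedlings and 0.60 under nicotinamide), AT2G14880 (-0.62), AT1G33811 (0.5), AT1G67870 (0.63), DIM1A (-0.62) and AT5G63180 (0.57). Their adjusted p lay between 0.00374 and 0.0196, and each of the 6 had opposite signs in the conditions. The test used a common spread for all conditions although nicotinamide arrays scattered more, so these p-values may be too small. The number of such probe sets moved widely with the arrays in the fit, from 1 higher and 0 lower without untreated time course 2 to 2112 higher and 1044 lower without nicotinamide time course 2.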

How the results depend on the processing

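Each of the 11 named level changes kept its direction under the alternatives that were run, but the counts of level calls (14 higher, 10 lower) were unstable. They were 2 and 3 with the spread of all 72 arrays, 0 and 0 with no filter on dim probe sets, 0 and 0 at an adjusted p of 0.01, and 6 and 0 with a minimum of 1.5-fold. With a pseudocount of 1, 3 were lower, and in the upper 40% of probe sets 23 were higher. Without 49 and 73 h, or without 53 and 77 h, they were 0 and 0, without 57 and 81 h 1 and 0, without 65 and 89 h 22 and 6, and without 69 and 93 h 5 and 1; without 61 and 85 h 20 were lower. Leaving out single arrays or a time course gave 0 to 48 higher and 0 to 47 lower, 1305 to 4094 rhythmic, 0 to 4 with a changed rhythm, 0 to 1 with lower and 0 to 7 with higher amplitude, a median amplitude ratio of 0.9126 to 1.075, a median peak shift of -0.3007 to 0.2748 h and 0 to 147 calls over the single hours. Time course 1 alone gave 1428 rhythmic probe sets and 39 calls over the single hours. The 7 and 4 came without 93 h of time course 2, and the 1 without 49 h of time course 2. The peak shift was 0.2734 h with the period shared by 3 clock genes, and a pseudocount of 64 gave 1 call at a single hour. Fewer arrays in a fit also leave fewer degrees of freedom; beyond that the cause was not tested.

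The labels do not pair the time courses. Between times, the differences of replicate 1 minus replicate 2 correlated at -0.2 to 0.459 with a median of 0.164, and 44 of 66 exceeded 0.1. With the replicate block 51 were higher and 40 lower, with 1 call at a single hour; as a random block 40 and 22 (correlation 0.0913); and on time course means 109 and 45. The interaction with toc1-1 gave 4 higher and 3 lower with the replicate block, 8 and 4 with those conditions alone, and 0 to 8 and 0 to 4 without single time courses. That with nicotinamide gave 595 and 410 with the replicate block, 1 and 0 with those conditions alone, 131 lower after quantile normalization, and 1 to 2112 higher and 0 to 1044 lower without single time courses.

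Among alternatives added after seeing the data, the toc1-1 calls ran from 1689 to 2563 without single toc1-1 arrays, and the untreated calls with the same direction there from 21 to 22.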
